A study of Mus musculus with 4 samples.

Results

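The proximal kinases and adaptors of the T-cell receptor were followed in Beko cells, a mouse leukemia pre-T cell line with constitutively active Notch. These genes were chosen by name, and all 9 (Lck, Fyn, Zap70, Syk, Lat, Lcp2, Txk, Tec and Themis) were among the 24391 gene symbols of the count table. RNA-Seq was measured in 4 libraries. The 2 GSI libraries came from cells kept for 48 h in DAPT, an inhibitor of gamma-secretase (GSI), the protease that releases the Notch intracellular domain, with fresh inhibitor given once during that time. The 2 washout libraries came from cells treated in the same way, washed and cultured for another 24 h without inhibitor. The concentration of DAPT was 10 mg/ml in the labels and 10 μg/ml in the methods. No genotype beyond the cell line was given, and all groups are this 1 line. Because washed cells were also cultured for longer, the return of Notch activity cannot be told apart from the wash and the extra culture. In bulk RNA, fewer cells of a kind and less RNA per cell cannot be told apart either. Nothing in the labels said that replicates were separate cultures, so p-values measure the spread between these libraries, which may be technical.

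When the T-cell receptor, or the pre-T-cell receptor of immature cells, is engaged, the Src family kinases Lck and Fyn phosphorylate the signaling motifs of the CD3 chains. Zap70 of the Syk family docks there and phosphorylates the adaptors Lat and Lcp2 (SLP-76), on which Tec family kinases, Txk and Tec among them, activate phospholipase C gamma. Themis is a T-lineage adaptor needed for thymocyte selection. In thymocyte development this machinery acts after Notch has directed progenitors into the T lineage.

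Total counts per library ranged from 13716199 to 36364200. Defining T-lineage markers were present, with Cd3e, a CD3 chain, between 86.2 and 102.4 CPM (counts relative to the scaled total of the library) in all 4 libraries, and 10 of 11 listed T-lineage genes were expressed highly enough to be tested, Cd7 being listed at 0 counts. Differences are log2 fold changes of washout minus GSI from edgeR's quasi-likelihood test, with p-values adjusted by the Benjamini-Hochberg method over the 12266 genes tested. A gene is called higher or lower when its adjusted p is under 0.05 and its log2 fold change is beyond 1 in either direction, the thresholds of the methods. Of all genes tested, 7.74% were called higher and 11.7% lower.

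Of the 9 genes, 8 were tested. 3 were called lower upon GSI washout, namely Lcp2, Txk and Tec, and 5 were not called. None was called higher by edgeR's quasi-likelihood test or by DESeq2, and at an unadjusted p under 0.05 only Fyn was higher. By adjusted p alone, without the fold threshold, Fyn was higher (1 gene, against 27.0% of all genes tested) and Lcp2, Txk, Tec and Themis were lower (4 genes, against 25.4%). The median log2 fold change of the 8 genes was -0.45, beside -0.01 for all genes tested. Lck and Fyn were above GSI in both washout libraries, as were 38.2% of all genes tested, and Lcp2, Txk, Tec and Themis were below it, as were 39.1%.

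The sequence just upstream of a transcription start is shown here for the 3 genes that were called lower and for Lck, which was not called. Txk and Lck have more than 1 window, and the one shown is the one that holds a core. The DNA-binding partner of Notch, RBPJ, has the canonical core TGGGAA. In the paper, the motif at sites with reduced RBPJ binding under GSI was TGRGAA, with G and A equally frequent at R. Both TGGGAA and TGAGAA were therefore searched. In the paper, sites with reduced RBPJ binding lay mostly away from transcription starts, so these windows do not cover where most of them lie. The 250 bases before each start were read from the RefSeq promoter table of GRCm38.p6 (each also occurs once, unchanged, in mm9), on the strand of the gene, and capitals mark the core. The windows are chr11:34046678-34046927 on the plus strand for Lcp2, and on the minus strand chr5:72752778-72753027 for Txk, chr5:72868449-72868698 for Tec and chr4:129573642-129573891 for the distal start of Lck.
Lcp2: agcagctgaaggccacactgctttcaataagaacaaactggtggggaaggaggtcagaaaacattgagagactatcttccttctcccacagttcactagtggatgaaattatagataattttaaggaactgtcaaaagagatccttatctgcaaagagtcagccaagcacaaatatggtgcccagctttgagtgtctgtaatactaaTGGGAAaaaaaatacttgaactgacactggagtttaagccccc
Txk: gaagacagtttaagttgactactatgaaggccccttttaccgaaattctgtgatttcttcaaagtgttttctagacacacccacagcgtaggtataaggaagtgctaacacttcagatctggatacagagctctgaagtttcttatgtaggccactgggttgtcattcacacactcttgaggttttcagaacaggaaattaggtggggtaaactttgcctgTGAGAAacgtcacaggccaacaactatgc
Tec: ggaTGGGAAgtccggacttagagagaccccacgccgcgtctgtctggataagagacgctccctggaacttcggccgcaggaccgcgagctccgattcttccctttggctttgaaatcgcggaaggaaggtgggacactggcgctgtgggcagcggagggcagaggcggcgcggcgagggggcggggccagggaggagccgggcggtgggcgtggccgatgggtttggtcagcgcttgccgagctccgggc
Lck: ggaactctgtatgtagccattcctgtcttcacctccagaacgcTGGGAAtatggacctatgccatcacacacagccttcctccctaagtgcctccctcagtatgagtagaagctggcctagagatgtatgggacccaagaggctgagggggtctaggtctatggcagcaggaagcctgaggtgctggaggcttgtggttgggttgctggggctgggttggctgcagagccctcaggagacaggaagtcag
The core begins 43 bases before the start in Lcp2, 29 in Txk, 247 in Tec and 207 in Lck. On either strand, 6 of the 15 windows of the 9 genes hold one of these cores. Besides the 4 shown, these are 1 window of Zap70 (179 bases before the start) and that of Lat (81 bases, on the opposite strand). No window of Fyn, Syk or Themis had a match. Neither the other window of Lck (chr4:129558373-129558622) nor that of Txk (chr5:72736603-72736852) held a core. TGGGAA is in 21.6% and TGAGAA in 17.2% of the 250-base windows of all 32851 promoters in the table, and 35% hold either. The cores were thus found before genes that were called lower (Lcp2, Txk, Tec) and before genes that were not (Lck, Zap70, Lat). A match is a run of letters and was not tested as a binding site.

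**Figure D1:**
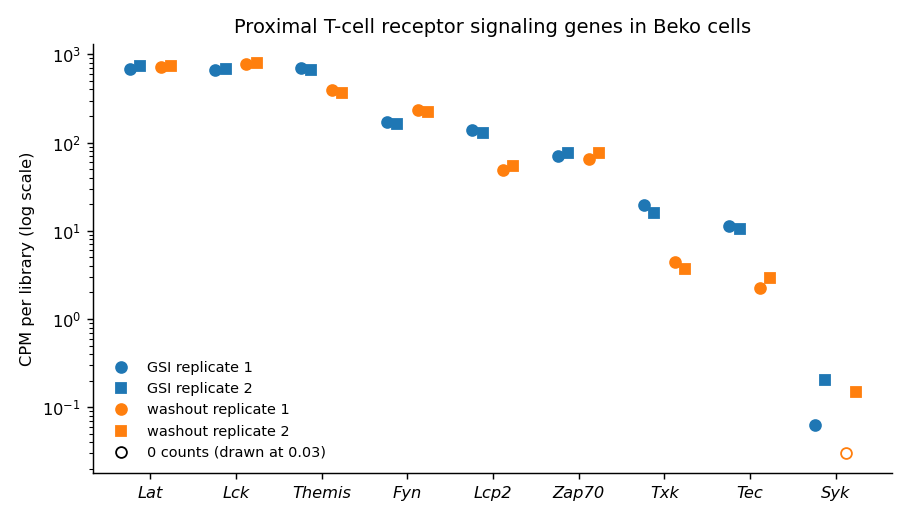
CPM of each gene (log axis) in every library, with GSI in blue and washout in orange, circles for replicate 1 and squares for replicate 2. Lat, Lck and Themis lie between 363 and 789 CPM in all libraries, while Txk and Tec drop from 10.6 to 19.5 CPM under GSI to 2.23 to 4.38 CPM after washout; Syk stays near 0.

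Neither of the Src family kinases was called. Lck, the main Src kinase of T cells (mm9 chromosome 4, 129225588 to 129250885, minus strand), had 662 and 675 CPM under GSI, against 769.9 and 788.5 CPM after washout. Both washout libraries were above both GSI libraries, yet the log2 fold change was only 0.22 (SE 0.109, 95% interval -0.04 to 0.49, adjusted p = 0.136 in edgeR's quasi-likelihood test). It was 0.02 when libraries were scaled by total count alone, a scaling that moved the median of all genes to -0.21. With offsets for GC content and exon length it was 0.38 (adjusted p = 0.00938 in edgeR), and over the alternatives that test against no change the adjusted p of Lck ranged from 0.00938 to 0.877.

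Fyn, the second Src kinase of T cells (chromosome 10, 39088661 to 39285187, plus strand), had 172.5 and 163.9 CPM under GSI, against 236.0 and 219.6 CPM after washout. The groups did not overlap, and Fyn was 1.35-fold higher upon washout (log2 fold change 0.44, SE 0.0969, adjusted p = 0.0109 in edgeR), under the fold threshold. The adjusted p of Fyn was over 0.05 when GSI replicate 1 (0.0579 in edgeR) or GSI replicate 2 (0.0790) was left out and under total-count scaling (0.0832), and over the alternatives that test against no change it ranged from 1.39e-05 to 0.0832.

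Levels of different genes were compared per length, as CPM per kb of the union of a gene's exons. On that scale Lck was 5.92-fold above Fyn in GSI and 5.10-fold above it upon washout. Lck made up 82.7% and 83.3% of the summed level of the 9 Src family kinases in GSI and 81.1% and 82.2% upon washout. Fyn made up 14.5% and 13.6%, then 16.7% and 15.4%. The remainder was mostly Fgr, a Src kinase best known from myeloid cells, at 2.76% and 3.13%, then 2.13% and 2.42%. Src, Yes1, Lyn, Blk and Frk were too low to be tested, Blk and Frk being listed at 0 counts in every library. With 2 libraries against 2, no exact test of such ratios can pass 0.05, so they are given without one.

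**Figure D2:**
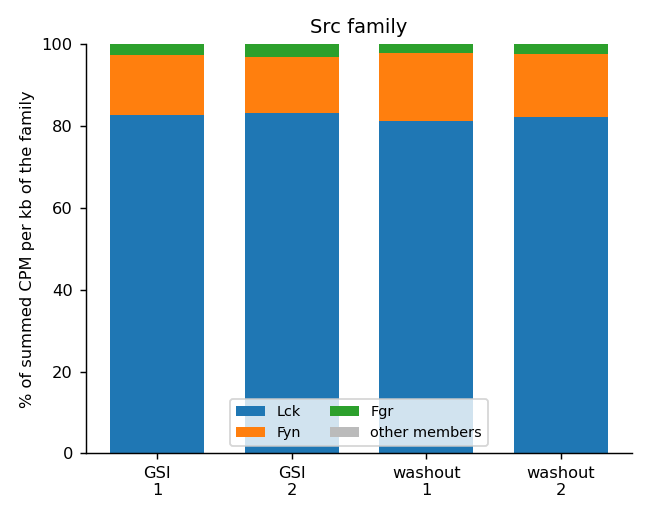
Share of each kinase (%) in the summed CPM per kb of the Src family, 1 bar per library, with members too low to see drawn in grey. Lck keeps 81.1% to 83.3% in all libraries, and Fyn goes from 13.6% and 14.5% under GSI to 15.4% and 16.7% after washout.

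Zap70, the kinase that binds the phosphorylated CD3 chains (chromosome 1, 36818695 to 36839663, plus strand), had 70.7 and 76.4 CPM under GSI, against 64.8 and 77.0 CPM after washout. The groups overlapped, and the log2 fold change was -0.06 (SE 0.116, 95% interval -0.34 to 0.23, adjusted p = 0.708 in edgeR). Its sign turned under some settings, with 0.19 under GC and length offsets. Syk, which takes the place of Zap70 in B cells, mast cells and early thymocytes (chromosome 13, 52678542 to 52744161, plus strand), had 2 and 3 counts in GSI and 0 and 2 counts upon washout. All 4 libraries were at or under 3 counts, which correspond to 0.0881 to 0.223 CPM, so Syk was not tested and no fold is given. Of the per-length level of this kinase pair, Syk made up at most 0.0669% in any library.

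Among the adaptors, Lat and Lcp2 parted. Lat, the membrane scaffold that Zap70 phosphorylates (chromosome 7, 133507346 to 133513057, minus strand), had 687.6 and 744.1 CPM under GSI, against 712.6 and 739.5 CPM after washout. Both washout values lay between the GSI values, and the log2 fold change was 0.02 (SE 0.114, 95% interval -0.26 to 0.30, adjusted p = 0.894 in edgeR), with a sign that turned under some settings, to -0.18 under total-count scaling.

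Lcp2, the cytosolic partner of Lat that brings Vav1 and the Tec kinases to the complex (chromosome 11, 33946920 to 33992295, plus strand), had 140.5 and 130.2 CPM under GSI, against 48.7 and 53.9 CPM after washout. Both washout libraries were far below both GSI libraries. Lcp2 fell 2.64-fold (log2 fold change -1.40, SE 0.102, adjusted p = 0.000347 in edgeR), with values from -1.60 to -1.32 over the 15 alternatives, in all of which it was called. Part of its exons overlaps 4930469K13Rik on the other strand, and the counting was not stated to use strand.

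Themis (chromosome 10, 28388166 to 28603624, plus strand) had 705 and 661 CPM under GSI, against 396 and 363 CPM after washout. It was 1.80-fold lower without overlap (log2 fold change -0.85, SE 0.113, 95% interval -1.12 to -0.57, adjusted p = 0.00164 in edgeR), under the fold threshold. Scaled to the total count, Themis reached a log2 fold change of -1.05 and was called lower. Exons of 4930519F09Rik overlap it on the other strand. All 5 introns of the longest Themis transcript were over 3000 bases, the longest intron the aligner was allowed to open, so that its reads across splice junctions could be lost in every library. Among the other genes between 1 (Lck, Lat) and 7 (Fyn) introns of the longest transcript exceed this length.

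Both Tec family kinases among the 9 genes fell, and by about the same amount. Txk, also called resting lymphocyte kinase (chromosome 5, 73087217 to 73144012, minus strand), had 19.5 and 16.0 CPM under GSI, against 4.38 and 3.65 CPM after washout, from 623 and 233 counts and 149 and 49 counts. The lower GSI library was still well above the higher washout library, a 4.37-fold fall (log2 fold change -2.13, SE 0.197, adjusted p = 0.000566 in edgeR). Over the 15 alternatives the log2 fold change of Txk was between -2.33 and -1.98, and it was called lower in each of them.

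Tec, the founding kinase of the family, which is used in many blood lineages (chromosome 5, 73146957 to 73259722, minus strand), had 11.2 and 10.6 CPM under GSI, against 2.23 and 2.90 CPM after washout, from 359 and 155 counts and 76 and 39 counts. Again the groups were well apart. Tec fell 4.35-fold (log2 fold change -2.12, SE 0.224, adjusted p = 0.000789 in edgeR), with values between -2.32 and -1.91 over the same alternatives and a call in each.

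Txk and Tec are tandem neighbours on the same strand, with 2944 bases between them. The ratio of Txk to Tec per length was 2.46 in GSI and 2.39 upon washout, a difference on the log2 scale (-0.04) smaller than its replicate SD in either group (0.147 and 0.454). For every one of the 9 genes, the nearest gene of the count table on each side was looked up, a choice made after values had been seen. Of these neighbours, 3 were called lower, 10 were not called and 5 were not tested, beside 11.7% of all genes called lower. The 3 are Txk and Tec, counted as neighbours of each other, and Nipal1. Txk and Tec are among the 9 genes and were already called, so only Nipal1 adds to the comparison with 11.7%. Nipal1, a predicted magnesium transporter on the far side of Txk (24899 bases away, on the plus strand), went from 17.9 and 9.12 CPM under GSI to 2.03 and 1.64 CPM after washout (log2 fold change -2.87, SE 0.376, adjusted p = 0.00156 in edgeR). On the far side of Tec, 45820 bases away, Slain2, a microtubule-binding protein, had 100.5 and 89.2 CPM under GSI, against 118.9 and 85.3 CPM after washout and was not called (log2 fold change 0.11). The 3 adjacent genes Nipal1, Txk and Tec were thus each called lower, while Slain2, the next gene beyond Tec, was not called. A shared cause was not tested.

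Btk and Bmx, the Tec kinases of B cells and of myeloid and endothelial cells, were too low to be tested.

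In GSI the levels per length ran in the order Lat (578 ± 32.3 CPM per kb, SD, n = 2), Lck (228 ± 2.99), Themis (75.6 ± 3.46), Fyn (38.6 ± 1.39), Zap70 (31.6 ± 1.73), Lcp2 (30.3 ± 1.63), Txk (7.30 ± 1.02), Tec (2.95 ± 0.114) and Syk near 0. The libraries of Zap70 and Lcp2 overlapped, and no other neighbours in this order did. Upon washout, Lat (586 ± 15.3) and Lck (266 ± 4.50) stayed on top, followed by Fyn (52.2 ± 2.66), Themis (42.0 ± 2.64), Zap70 (30.4 ± 3.72), Lcp2 (11.5 ± 0.830), Txk (1.65 ± 0.213) and Tec (0.694 ± 0.128), with no overlap between neighbours. On this scale Themis and Fyn changed places, and Zap70, level with Lcp2 in GSI, stood above it. These places rest on the gene model. Per kb of the longest transcript, Themis had 74.7 CPM per kb upon washout and Fyn 64.0, so that their order did not turn. On the same scale Lcp2 lay above Zap70 in GSI (38.5 and 35.7 against 32.3 and 34.8 CPM per kb) and below it upon washout. Relative to all genes tested, average levels ranged from the 98.9th percentile (Lck, Lat) to the 28.2nd (Txk) and 22.7th (Tec).

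**Figure D3:**
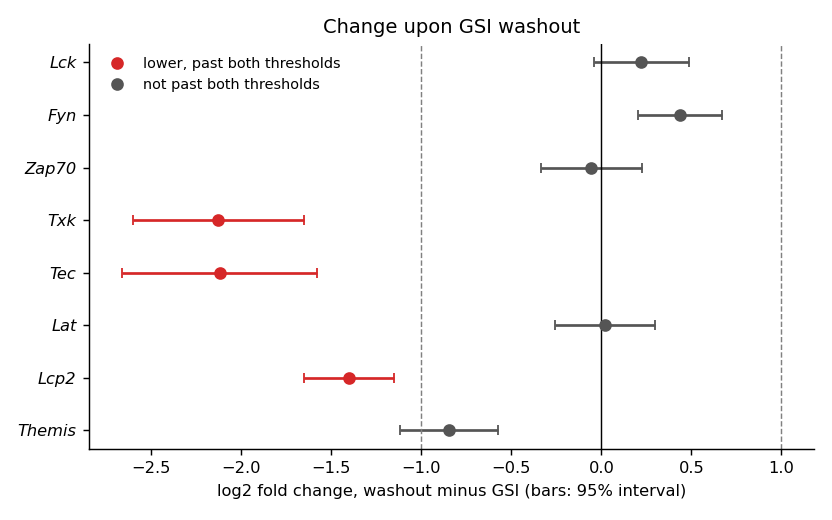
Log2 fold change of washout minus GSI with its 95% interval for the 8 genes tested, with dashed lines at the fold threshold and genes past both thresholds in red. Txk (-2.13), Tec (-2.12) and Lcp2 (-1.40) lie left of the threshold, and Lck, Zap70 and Lat have intervals that include 0.

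The other genes of the pathway were taken from 5 lists. Beside these, 7.74% of all genes tested were called higher and 11.7% lower. Upstream of the kinases, 1 of 5 pre-T-cell receptor and CD3 chains was called higher and none lower (median log2 fold change 0.14). It was Ptcra, the invariant pre-T-cell receptor alpha chain, from 47.1 and 54.4 CPM under GSI to 248.6 and 275.8 CPM after washout. Cd3g, a CD3 chain, had a log2 fold change of 0.86, under the fold threshold. Of 9 coreceptors and surface modulators, 7 were called lower and none higher (median -1.29), among them Cd5 (-1.90) and Cd6 (-1.70), scavenger receptors that dampen receptor signals, and Ptprj (-1.82), a receptor phosphatase that acts on Src kinases. Ptprc (CD45), the phosphatase that activates Lck and the gene of this list with the highest mean CPM, had a log2 fold change of -0.89, under the fold threshold. It was called lower under total-count scaling (-1.09), without GSI replicate 2 (-1.09) and without washout replicate 1 (-1.16), and without GSI replicate 1 its adjusted p in edgeR was 0.0903, the range over tests against no change being 3.25e-15 to 0.0903. Of the remaining Src kinases, Fgr had a log2 fold change of -0.13 (adjusted p = 0.440 in edgeR).

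Of 17 negative regulators of proximal signaling, 16 were tested and 3 were called lower and none higher (median -0.42), beside 11.7% of all genes called lower. These were Dgka (-1.58), which removes diacylglycerol, Sla (-1.42), an adaptor that promotes receptor turnover, and Dok2 (-1.10), an adaptor that recruits inhibitors of Ras. Of 19 partner adaptors, 16 were tested, and again 3 were called lower and none higher (median -0.47). They were Blnk (2.83-fold lower), the counterpart of Lcp2 in B cells, Fyb (-1.27), which binds Lcp2, and Grap2 (-1.05), also called Gads, which links Lat to Lcp2. Cd6 and Blnk each lost the call in 2 of 15 alternatives. Without GSI replicate 1 their log2 fold changes were -1.21 and -1.08. Their highest adjusted p-values, 0.212 and 0.323, came from glmTreat, which tests against the fold threshold and not against no change. Grap2 and Dok2 lay near the fold threshold and were not called with GC and length offsets (-0.89 and -0.94) or glmTreat, nor was Grap2 without GSI replicate 2 (-0.99) or Dok2 without washout replicate 1 (-0.97).

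Of 23 effector enzymes and exchange factors, 21 were tested, 5 were called lower and none higher (median -0.38), beside 11.7% of all genes called lower. The largest falls were those of Rasgrp1 (-2.47), the Ras exchange factor that diacylglycerol recruits, Pik3cd (-2.01), the leukocyte phosphoinositide 3-kinase, and Prkcq (-1.79), the protein kinase C of the T-cell synapse. Nfatc2 and Itpkb were the other 2. Prkcb, with the highest mean CPM of the list, had 481 and 518 CPM under GSI, against 521 and 499.5 CPM after washout, a log2 fold change of 0.03 whose sign turned under some settings. Pik3cd was low and varied between replicates, with 3.81 and 6.44 CPM under GSI, against 0.646 and 2.16 CPM after washout. Its log2 fold change was -1.21 without washout replicate 1 (adjusted p = 0.0570 in edgeR), less than that of Prkcq (-1.81), and -2.94 without washout replicate 2. Without GSI replicate 2 it was -1.58. Pik3cd lost the call in 3 of 15 alternatives, and its highest adjusted p, 0.268, came from glmTreat, which tests against the fold threshold. Without washout replicate 1, 2 effectors in place of 5 were called lower. Across the 4 libraries, the pathway genes whose log2 CPM pattern lay nearest to that of Txk, the gene with the largest fall among the 9, were Cd5 (Euclidean distance 0.244) and Ptprj (0.343), out of 69 compared. The fall of Txk (-2.13) was close to that of Tec (-2.12), and which of them fell more depended on the setting. Tec fell more with the replicate block (-2.15 against -2.14), thinned counts, GC and length offsets, and without GSI replicate 1. Txk fell more with DESeq2 and with RLE or total-count scaling. The choice of Txk for the nearest patterns thus rests on the main fit.

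**Figure D4:**
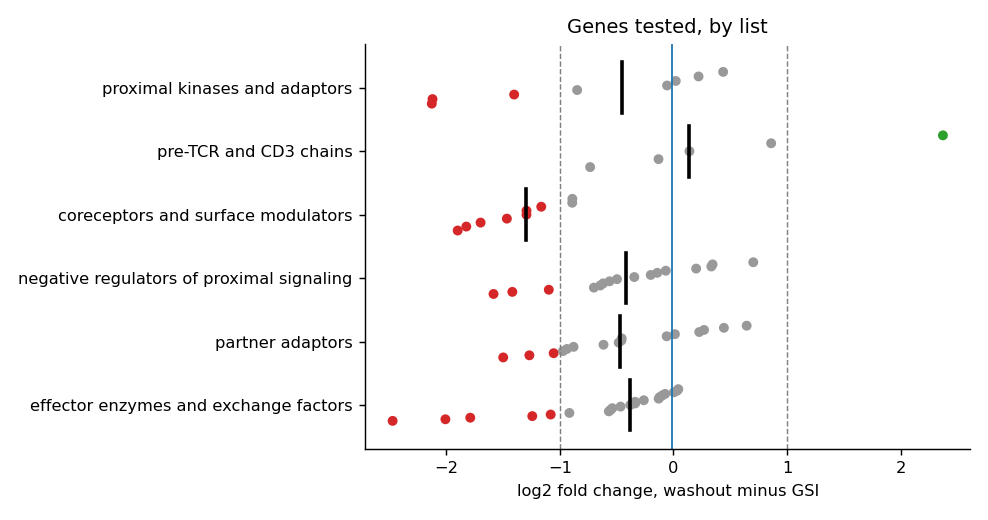
Log2 fold change of washout minus GSI for each tested gene of the 9 and of the 5 pathway lists, with genes called lower in red, called higher in green and the rest in grey. Black bars are list medians, dashed lines the fold threshold and the blue line the median of all genes tested (-0.01); every list but the pre-T-cell receptor and CD3 chains has a median under it, and Ptcra (2.37) is the only gene called higher.

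Lcp2, Tec and Txk are also used outside the T lineage, in mast, myeloid or natural killer cells. Those markers of such cells that could be tested were lower upon washout as well. These were 2 of 10 for mast cells, 1 of 10 for myeloid cells and 4 of 8 for natural killer and innate lymphoid cells. Of all genes tested, 11.7% were called lower. The filter let in genes expressed in 1 group alone. Nkg7 (78 and 25 counts under GSI, 3 and 2 after washout) and Tyrobp (14 and 12, then 4 and 2) passed it only through GSI. That every tested marker fell was thus partly set by the filter. Summed over 10 mast cell markers, the level went from 274.8 and 166.9 CPM under GSI to 45.7 and 30.5 CPM after washout. It rested on Cpa3 (-4.30) and Kit (-1.53), and Cpa3 ranged from -5.83 (without washout replicate 1) to -3.62 (without GSI replicate 1) when 1 library was left out. In contrast, 7 of the 10, including Fcer1a, Ms4a2 and Cma1, were at 0 in all libraries. The 10 myeloid markers summed to 49.5 and 38.5 CPM, then 5.58 and 4.99 CPM. Nearly all of this was Itgam (-3.08), with Cebpa, Elane and Lyz2 at 0. The 8 natural killer and innate lymphoid markers went from 2609 and 1807 CPM to 388 and 308 CPM, nearly all of it Gzma (-2.66). Il2rb (-3.27), Nkg7 (-4.24) and Tyrobp (-2.16) were also called lower, and Zbtb16 was at 0. Klrb1c, Ncr1 and Eomes were too low to be tested. Tyrobp, at under 1 CPM in every library, was not called in 5 of 12 alternatives, among them DESeq2 (adjusted p = 0.148). It also lost the call in edgeR without GSI replicate 2, washout replicate 1 or washout replicate 2. Its highest adjusted p, 0.246, came from glmTreat, which tests against the fold threshold. The 7 erythroid and megakaryocyte markers summed to 13.6 and 11.2 CPM, then 5.52 and 4.76 CPM, with Gata1, Klf1 and Itga2b called lower and the globins and Pf4 at 0. Klf1 and Itga2b each lost the call in 7 of 14 alternatives, among them DESeq2 (adjusted p = 0.209 and 0.200). Both also lost it in edgeR without GSI replicate 1, washout replicate 1 or washout replicate 2, and Klf1 without GSI replicate 2. Their highest adjusted p-values, 0.788 and 0.610, came from glmTreat. The 8 B-lineage markers stayed under 1.58 CPM in sum, none was tested, and Ebf1, Ms4a1 and Pax5 were at 0. Of the T-lineage markers, Ptcra was called higher and Gata3 (-1.67) lower, and 8 tested genes were not called. By adjusted p alone, 3 were higher (Ptcra, Cd3g and Rag2) and 4 lower (Gata3, Tcf7, Bcl11b and Thy1), beside 27.0% and 25.4% of all genes tested. The part of these genes in the falls of Lcp2, Txk and Tec was not tested.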

How the data were processed

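Total RNA of Beko cells was depleted of ribosomal RNA and sequenced from strand-marked libraries. According to the methods, trimmed reads were aligned by the authors to mm9 (HISAT2 2.2.1, 1 alignment per read, introns of at most 3000 bases), and summarizeOverlaps counted reads per gene of the iGenomes annotation. The strand setting is not given in the sources used here. The authors deposited these raw counts without normalization. Every column was used, and groups came from the labels.

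Counts were tested with edgeR 4.0.16 (R 4.3.3), using filterByExpr, TMM factors and the quasi-likelihood test without covariates. All 4 libraries entered 1 fit, with Benjamini-Hochberg adjustment over all genes tested. CPM used TMM-scaled totals. The common biological coefficient of variation was 0.121. Replicates differed beyond sampling noise (chi-square per degree of freedom 17.2 in GSI and 27.7 upon washout). A level of 3 counts was taken as the floor and covers counting error only. Positions, exon lengths and GC content came from GENCODE vM1 on mm9, where 20643 symbols matched 1 gene (Syk as Sykb), and upstream sequences from RefSeq (GRCm38.p6).

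The members and lists were chosen with earlier results of these data known. Named were the 9 genes and, for each list up to 3 genes with the largest rise and up to 3 with the largest fall among those called and the gene with the highest level, the 2 pathway genes nearest in pattern to the member with the largest fall, and markers called or at 0. Some genes and 1 list that this rule covers are not reported here. Nipal1 and Slain2 were added after values were seen. Alternatives were DESeq2 1.42.0, RLE or total-count scaling, no filter or at least 10 counts in every library, a replicate block, thinning to 13716199 counts, other thresholds, offsets for GC content and length, leaving out each library and, for ratios, longest transcripts. The scripts were tested on simulated data.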

Additional observations from a re-analysis of the deposited data

How the results depend on the processing

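Lcp2, Txk and Tec were called lower in all 15 alternatives, and 3 of the 9 genes were called lower in each except total-count scaling and adjusted p alone, which gave 4 with Themis. By adjusted p alone, which drops the fold threshold and so could not remove a call, 1 was called higher. Over all genes, 950 were called higher and 1437 lower. These numbers became 586 and 1963 under total-count scaling, 3315 and 3120 by adjusted p alone, and 308 and 501 with glmTreat. Total-count scaling moved the share of higher calls from 39.8% to 23.0%. With 1 library left out the number called higher was 881 to 1064 and lower 1118 to 1375.

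The small values of uncalled genes changed sign. Lat (0.02) became -0.18 under total-count scaling, -0.018 with at least 10 counts in every library, -0.012 with thinned counts (-0.011 with the replicate block too) and -0.041 without GSI replicate 1, with leave-one-out values from -0.041 to 0.090. Zap70 (-0.06) became 0.19 with GC and length offsets and ranged from -0.17 to 0.073 with 1 library left out. Prkcb (0.03) became -0.17 under total-count scaling and -0.0060 with at least 10 counts, and ranged from -0.025 to 0.097 with 1 library left out. The cause was not tested.

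List counts moved as follows. Partner adaptors called lower (3) became 6 under total-count scaling. By adjusted p alone, effectors called lower (5) became 12, negative regulators (3) became 7 with 2 higher, partner adaptors (3) became 9 with 1 higher, and the pre-T-cell receptor chains had 2 higher and 1 lower. With glmTreat, coreceptors (7) became 3, effectors 2, negative regulators 1, and partner adaptors 0. Effectors became 3 with GC and length offsets and 2 without washout replicate 1. With longest transcripts, the log2 ratio of Lck to Fyn in GSI went from 2.57 to 2.70 and that of Txk to Tec from 1.30 to 0.89.

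The labels give both groups the same replicate numbers, but nothing says that a number marks a shared culture. Same-numbered deviations correlated at 0.497 across genes. With a replicate block 981 genes were called higher and 1576 lower, 3 of the 9 genes were called lower, and the adjusted p of Lck in edgeR was 0.0473 at a log2 fold change of 0.22. Among the 9 genes, no call past both thresholds changed with the block, and by adjusted p alone only that of Lck did. Counts of 39 to 155 for Tec and 49 to 233 for Txk in the shallower libraries limit the precision of these 2 genes most.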
